A study of Drosophila melanogaster with 2 samples.

Results

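The 654 regions described here are the weaker pooled peaks in coding exons from a chromatin immunoprecipitation sequencing (ChIP-seq) experiment on Fer3 in Drosophila melanogaster. They are 654 of the 30000 peaks called on both replicates together (the pooled list) and 654 of the 24364 pooled peaks that were absent from the authors' reproducible list. That list holds the 5636 peaks that passed the authors' threshold on irreproducible discovery rate (IDR), a measure of rank agreement between replicates. By signal value these were exactly pooled ranks 1 to 5636, so every peak absent from the list had a lower pooled rank. A member had its summit, the base of highest signal, in a protein-coding (CDS) base and more than 500 bp from every start, the 5′ end that the annotation gives to a protein-coding transcript. The members were therefore chosen by measured values, namely their pooled rank below the IDR threshold and the place of their summit. Both are given below as a description with no test.

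The experiment used whole embryos aged 6 to 24 h from 1 transgenic line that carries Fer3 with a GFP tag at the C terminus, precipitated with an antibody against GFP. There were 2 biological replicates, from separate biosamples of that line, and no second condition. The driver of the transgene was not given in the sources used here, whole embryos mix all cell types, and the values of the control were not used here. The lists hold no read counts, so depth is unknown, and the scale of the authors' signal value is undefined in the sources used here. Intervals are exact Clopper-Pearson 95% intervals and cover counting error over peaks only.

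The factor Fer3 belongs to the basic helix-loop-helix (bHLH) proteins. These bind DNA as dimers at E-boxes, sites of the form CANNTG, most often in promoters and enhancers. Coding exons make up a large part of the compact fly genome, are richer in G and C than introns and intergenic DNA, and can also hold enhancers. A ChIP-seq peak shows DNA recovered with the factor, whether or not the factor touches that DNA itself.

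The sequences of 6 of the 7 highest members are shown, because each of these members had a summit from both replicates within 100 bp. The other of the 7, in scb, met the same criterion and is described below without its sequence. Each is the pooled summit with 50 bp on either side, on the plus strand of dm6, from 5′ to 3′, with an E-box in capitals.
CG10962 (X, minus-strand gene, chrX:8973285-8973385): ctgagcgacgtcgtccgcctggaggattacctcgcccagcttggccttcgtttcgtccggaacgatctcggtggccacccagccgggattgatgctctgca
btsz (3R, minus-strand gene, chr3R:14819862-14819962): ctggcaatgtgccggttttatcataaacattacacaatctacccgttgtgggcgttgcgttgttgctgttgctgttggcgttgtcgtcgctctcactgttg
Naprt (2L, minus-strand gene, chr2L:4195755-4195855): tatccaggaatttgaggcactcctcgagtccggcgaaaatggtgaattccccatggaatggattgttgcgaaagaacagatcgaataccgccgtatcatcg
Tim17b1 (3R, plus-strand gene, chr3R:5300803-5300903): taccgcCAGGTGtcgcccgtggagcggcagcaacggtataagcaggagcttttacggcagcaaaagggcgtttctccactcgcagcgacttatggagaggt
CG42327 (3R, plus-strand gene, chr3R:11669682-11669782): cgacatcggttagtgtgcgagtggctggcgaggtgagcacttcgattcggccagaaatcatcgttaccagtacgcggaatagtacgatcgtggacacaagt
CG18765 (3R, minus-strand gene, chr3R:11691143-11691243): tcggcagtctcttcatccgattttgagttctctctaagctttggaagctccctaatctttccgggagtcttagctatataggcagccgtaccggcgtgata

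Of these 6 printed windows, 1 held an E-box, a CAGGTG in Tim17b1, which reads CACCTG on the other strand. GC content differed widely among them, from 48.5% in Naprt and CG18765 to 63.4% in CG10962. These windows are a description of 6 sites, and the E-box counts over all members follow below.

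The highest member lay in the last coding exon of CG10962, in the peak chrX:8973153-8973516, with a pooled signal value of 113 at rank 6342. Replicate 1 had a peak there at rank 6572 and replicate 2 at rank 6651, with its summit on the same base as the pooled summit. The member in btsz, which encodes a synaptotagmin-like protein that organises actin at epithelial junctions, came next. It lay at chr3R:14819730-14820093, wholly within a coding block of 7035 bp, with a signal value of 108, and it ranked 5870 in replicate 1 and 8095 in replicate 2. A coding block is an unbroken run of CDS bases in the annotation. Naprt, which encodes nicotinate phosphoribosyltransferase of NAD synthesis, held the third, at chr2L:4195623-4195986 in an internal coding exon. Its signal value was 106, with rank 4332 in replicate 1 and rank 11201 in replicate 2.

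Further members of the highest 20 lay in genes of varied roles. The member in scb, an integrin alpha subunit gene on 2R, ranked 4435 in replicate 1 and 7973 in replicate 2. Tim17b1, a subunit gene of the mitochondrial inner-membrane translocase, had its member at rank 5649 in replicate 1 and 9515 in replicate 2. Calr, the gene of the endoplasmic reticulum chaperone calreticulin, had one at ranks 9891 and 9168 in replicates 1 and 2. TpnC73F encodes a muscle troponin C, and its member summit sat in a coding block of only 26 bp, so that 7.14% of the peak interval was coding. Over the 20, signal values ran from 113 to 77.4 and pooled ranks from 6342 to 9812. Both replicate lists held a peak at 17 of them, replicate 1 at 18 and replicate 2 at 19, and 10 lay within 1000 bp of a start.

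The exceptions among the 20 were single-replicate sites. CG4080 had no replicate 1 peak and a replicate 2 peak at rank 7887, with the summit 4 bp away. In pirk, which encodes a negative regulator of the Imd immune pathway, no replicate 1 peak was found. The replicate 2 peak there ranked 14104, with the summit 106 bp away. Cht6, a chitinase gene, was the reverse, with a replicate 1 peak at rank 15743 and no replicate 2 peak. Ranks could also differ widely where both replicates had a peak. The member in toc, which encodes a microtubule-associated protein, ranked 18155 in replicate 1 and 7369 in replicate 2. The member in anchor ranked 6940 and 22841 in replicates 1 and 2, with the replicate 2 summit 119 bp away.

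The Fer3 gene itself held no member. Fer3 lies on the minus strand at chr3R:11693410-11694311, and 235 of its 585 coding bases were more than 500 bp from every start. It contained 0 weaker pooled summits of any kind. The only member within 10 kb was that in CG18765, 2217 bp from the Fer3 gene, at pooled rank 7723 with a signal value of 95.4. Replicate 1 had it at rank 5707 and replicate 2 at rank 6106, with summits 30 and 97 bp from the pooled summit. The labels describe a Fer3 insertion, and its part in signal near the gene was not tested.

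Members lay low in the pooled list. Their signal values ran from 28.6 to 113 with a median of 35.6, against a median of 45.9 over the 23710 other weaker pooled peaks. Their median rank was 23486, against 17616. Of the 654 members, 49 had a deposited q at or under 0.05 (7.49%, 5.59 to 9.78), against 31.7% of all weaker pooled peaks. Members and other weaker pooled peaks alike rank below the IDR threshold, and the members' place in coding exons is what sets them apart under the rule.

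The share of summits in coding exons was higher in each lower bin of the pooled list. Among pooled summits more than 500 bp from a start, it was 0.258% (4 of 1553) at ranks 1 to 3000, 0.977% (21 of 2150) at ranks 9001 to 12000, and 7.09% (186 of 2624, 6.14 to 8.14) at ranks 27001 to 30000. Of all bases more than 500 bp from a start, 15.5% were coding (18.9 Mb of 122 Mb), so even the lowest bin lay below the share of bases. The replicate lists, each ranked on its own, also had their lowest shares near the top and their highest at the bottom. In replicate 1 the share was 0.198% in the highest bin and 8.72% in the lowest, and in replicate 2 it was 0.383% and 8.69%. The middle ranks differed, with 4.80% in replicate 1 and 1.80% in replicate 2 at ranks 12001 to 15000.

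**Figure D1:**
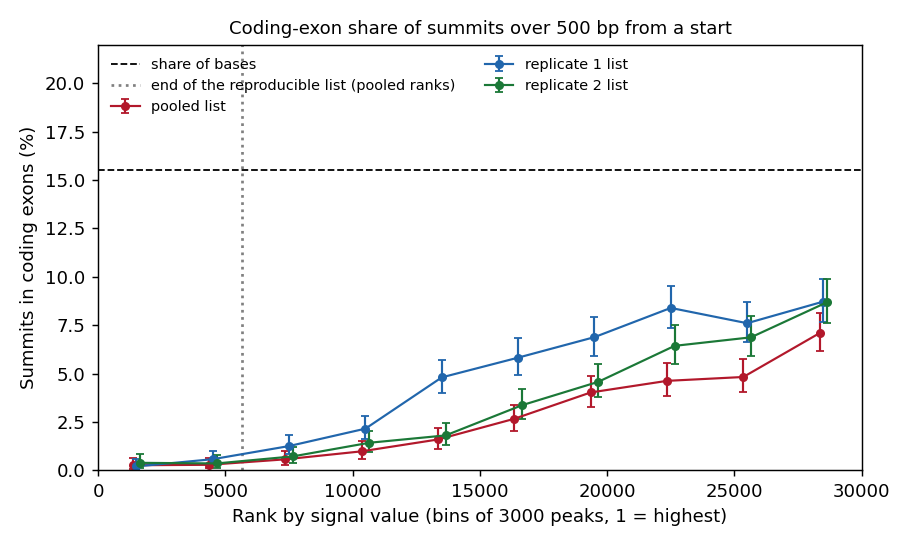
Share of summits more than 500 bp from a start that lie in coding exons (percent), by rank bin of 3000 peaks, for the pooled list and each replicate list; bars are exact 95% intervals and points are offset sideways for clarity. All 3 lists start below 0.4% and end between 7.09% and 8.72%, under the 15.5% share of bases (dashed).

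Values on either side of the thresholds were close. The lowest-ranked of the 9 reproducible peaks in coding exons lay in HisRS, a histidyl-tRNA synthetase gene, at rank 5557 with a signal value of 127, and the highest member in CG10962 had 113. The highest of those 9, in the homeobox gene otp, ranked 319 with a signal value of 868. At the distance threshold, the nearest members to a start were in Med, a Smad transcription factor gene, at 504 bp and in CG33679 at 505 bp. Summits in Hf at 499 bp and in chrb at 498 bp fell just short, among 369 weaker pooled summits in a coding base within 500 bp of a start. The lowest member, in wge, ranked 29951.

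A smaller share of members than of all weaker pooled peaks was found in the separate replicate lists. A replicate 1 peak overlapped 337 of 654 members by at least 1 bp (51.5%, 47.6 to 55.4), against 66.1% of all weaker pooled peaks. A replicate 2 peak overlapped 395 (60.4%, 56.5 to 64.2), against 76.0%. Both did so at 165 members (25.2%, 21.9 to 28.7), against 49.1%, and neither at 87 (13.3%, 10.8 to 16.1), against 6.96%. The remaining members had a peak in a single list. In replicate 1 only there were 172 (26.3%, against 17.0% of all weaker pooled peaks). In replicate 2 only there were 230 (35.2%, against 27.0%). The replicate reads make up the pooled list, so these shares are not independent of the choice of members and carry no test.

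The gap was smaller at like ranks. Both replicates held a peak at 10 of 11 members at pooled ranks 6001 to 9000 (90.9%, 58.7 to 99.8) and at 17 of 21 members at ranks 9001 to 12000 (81.0%, 58.1 to 94.6). The share was 40.8% (31.0 to 51.2) at ranks 18001 to 21000 and 9.14% (5.41 to 14.2) at ranks 27001 to 30000. Weaker pooled peaks outside promoters and exons, taken in the same proportions over rank bins as the members, were in both lists in 31.1% of cases and in neither in 12.8%. Weaker promoter peaks weighted in the same way were in both in 35.6% and in neither in 9.62%. Both weighted shares in both lists lay above the interval of the members (25.2%, 21.9 to 28.7). By bin, members lay below the class outside promoters and exons at ranks 12001 to 15000 (52.8% against 69.9%), at ranks 15001 to 18000 (44.4% against 54.5%) and in the 3 bins from rank 21001 on. The 95% intervals of members and of that class were apart at ranks 24001 to 27000 alone, with 10.5% (5.70 to 17.3) of members against 19.6% (18.0 to 21.3). Intervals of members and of weaker promoter peaks were apart in all 3 bins from rank 21001 on. In the last of these, promoter peaks had 24.7% (20.5 to 29.4).

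**Figure D2:**
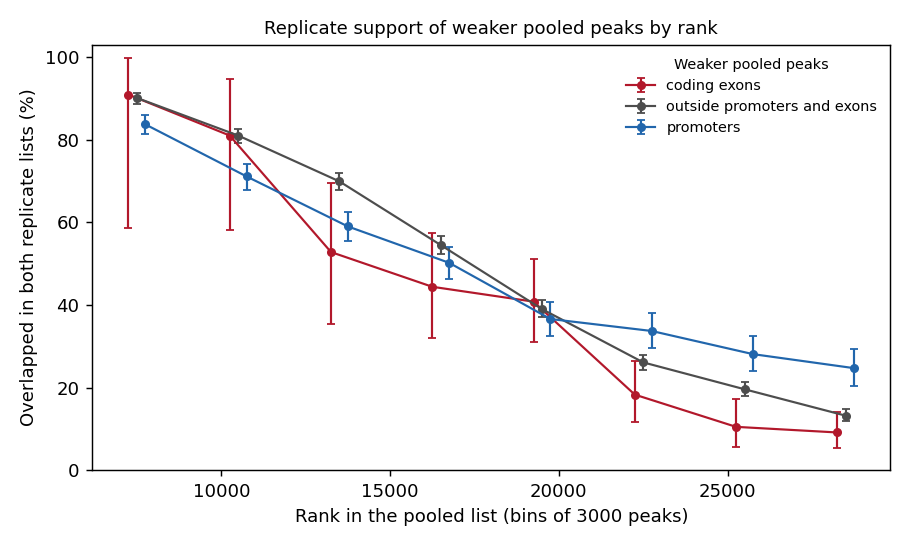
Share of weaker pooled peaks overlapped by a peak in both replicate lists (percent), by pooled rank bin of 3000, for peaks in coding exons, peaks outside promoters and exons, and promoter peaks; bars are exact 95% intervals. The coding-exon share fell with rank to 9.14% in the last bin, where the class outside promoters and exons had 13.2% and promoters 24.7%.

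A replicate 1 summit lay within 100 bp of 274 of 654 member summits (41.9%, 38.1 to 45.8), against 50.6% of all weaker pooled peaks. Of those replicate summits, 248 (90.5%, 86.4 to 93.7) were themselves in a coding exon. A replicate 2 summit lay as near to 315 member summits (48.2%, 44.3 to 52.1), against 63.8%. Of those replicate summits, 292 (92.7%, 89.2 to 95.3) were in a coding exon. Members were chosen for a coding summit, and bases 50 bp to either side were coding in 83% and 84.7% of members. Closeness to the summit therefore favours a coding place, and these shares carry no test. Within that limit of 100 bp, the median offset was 23.5 bp in replicate 1 and 9 bp in replicate 2. A summit from both replicates lay within 100 bp at 78 members (11.9%, 9.54 to 14.7), against 29.5% of all weaker pooled peaks.

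Replicate ranks of the same member were only loosely related. Over the 165 members in both lists, Spearman's rho of the replicate ranks was 0.34, against 0.422 over 11790 other weaker pooled peaks in both lists. These are descriptions across peaks that share the 2 libraries and 1 control alignment. Pooled rank chose the peaks and the replicate reads make up the pooled list, so rho is not independent of that choice. Neighbouring members can also overlap the same replicate peak and carry its rank, as in CG11726. Overlapping replicate 1 peaks had a median rank of 17742 and 32 of 337 (9.50%) had a q of at most 0.05. Overlapping replicate 2 peaks had a median rank of 20760, and 117 of 395 (29.6%) reached that q. Among peaks of every place, 8921 in replicate 1 and 17256 in replicate 2 reached that q, in lists of equal length. The replicate lists therefore differed in q as a whole, and not only at members.

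Named after their values were seen, 3 members overlapped a reproducible peak. The member in Socs36E, an inhibitor gene of JAK/STAT signalling, ranked 23204 in the pooled list and lay 227 bp from a reproducible summit at rank 3268. The member in CG30286 ranked 25351 and lay 200 bp from one at rank 5365, and the member in CG13086 ranked 28010 and lay 202 bp from one at rank 3786. The replicate peaks that overlapped these 3 ranked 3882, 6107 and 3993 in replicate 1 and 2919, 4760 and 3912 in replicate 2. A further look at spacing found 96 members (14.7%) within 1000 bp of a reproducible summit and 67 members that overlapped another pooled peak. These counts are given without the matching shares of all weaker pooled peaks and are a description only.

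**Figure D3:**
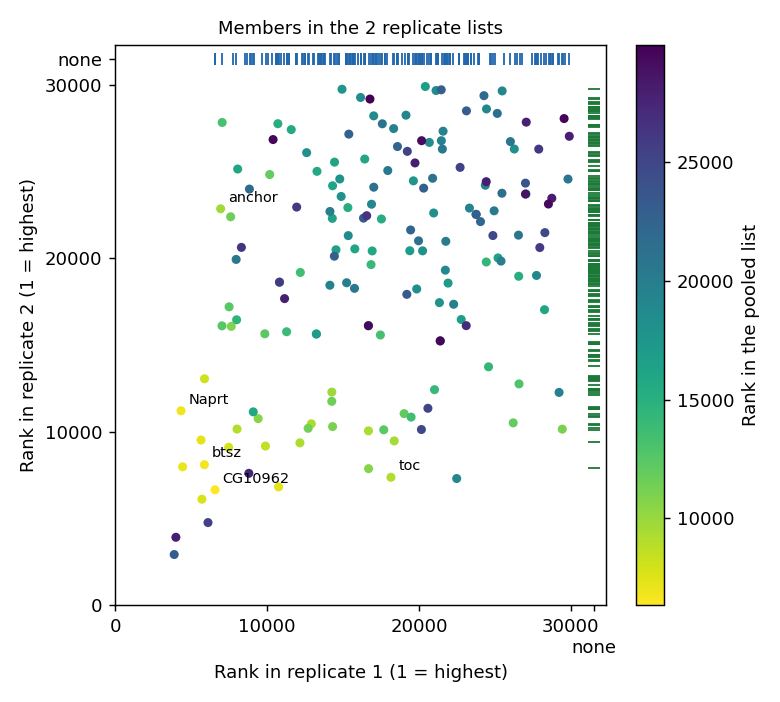
Rank in replicate 1 (x axis) and in replicate 2 (y axis) of the peaks that overlap each member, coloured by pooled rank; ticks along the top and right mark members with a peak in replicate 1 only (172) or replicate 2 only (230), and the 87 members in neither list are not drawn. The highest members (CG10962, btsz, Naprt) sit toward the lower left. Socs36E, CG30286 and CG13086, of low pooled rank, also plot there, since the replicate peaks that overlap them rank high. Most others are spread widely.

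The converse comparison started from each replicate's own peaks under the same place rule. Replicate 1 had 1173 coding-exon peaks (3.91% of its list), of which 191 (16.3%, 14.2 to 18.5) overlapped a replicate 2 peak and 282 (24.0%) overlapped a member. Replicate 2 had 808 (2.69%), of which 152 (18.8%, 16.2 to 21.7) overlapped a replicate 1 peak and 331 (41.0%) overlapped a member. Of all peaks in each list, 56.3% of replicate 1 and 59.2% of replicate 2 overlapped the other list. These shares are not adjusted for rank, and coding-exon peaks rank low in both lists.

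Peak intervals covered little coding sequence. Pooled intervals covered 1.32% of coding bases more than 500 bp from a start, against 7.33% of all bases. The replicate 1 intervals covered 2.08% of those coding bases and held 303 member summits (46.3%, 42.5 to 50.2). The replicate 2 intervals covered 1.61% and held 369 (56.4%, 52.5 to 60.3). The replicate reads make up the pooled list, so pooled summits tend to fall in replicate intervals. The shares of member summits are therefore not comparable with the shares of bases and carry no test.

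Within genes, members sat nearer to starts and to exon edges than coding bases in general. The median distance to the nearest start was 1180 bp, against 1974 bp over the 18928981 coding bases more than 500 bp from a start. Of the members, 266 (40.7%, 36.9 to 44.5) lay 501 to 1000 bp from a start, against 22.6% of those bases, and 71 (10.9%, 8.58 to 13.5) lay over 5000 bp away, against 20.5%. The nearest start belonged to the host gene, the gene whose CDS holds the summit, for 483 members (73.9%).

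The coding blocks that held members were short. Their median length was 496 bp, against 817 bp for the block of a coding base, and the median distance to the block edge was 97 bp, against 168 bp. Within 50 bp of an edge lay 203 members (31.0%, 27.5 to 34.7), against 20.8% of coding bases. All member intervals were 364 bp wide, and a median of 82.1% of the interval was coding. The whole interval was coding for 206 members, and under 50% of it for 77 (11.8%). The summit base was coding in every protein-coding transcript of the gene for 549 members (83.9%). Internal coding exons held 263 members, last coding exons 184, first coding exons 115 and single coding exons 66, and 26 lay in exons whose order differed between transcripts.

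The place of members varied modestly with their rank. Among the 218 highest members, 83 (38.1%, 31.6 to 44.9) lay within 50 bp of a block edge, against 59 of the 218 lowest (27.1%, 21.3 to 33.5), and under 50% of the interval was coding for 34 and 22 of them. The share 501 to 1000 bp from a start was 41.3% among the highest 218 and 39.9% among the lowest. Mean GC content was 51.7% ± 7.4 (SD, n = 218) in the highest and 53.2% ± 7.35 (SD, n = 218) in the lowest. Pooled rank chose the members, so these splits are descriptions.

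GC content was close to that of coding sequence in general. Windows of 50 bp on either side of the summit averaged 52.7% ± 7.23 GC (SD, n = 654 members), against 40.0% ± 9.67 (SD, n = 23710) for other weaker pooled peaks. Coding bases more than 500 bp from a start were 53.4% GC. Of the members, 467 had at least 1 flanking window centred 500 bp away on a coding base. Their summit windows averaged 52.2% ± 7.03 and their coding flanks 52.3% ± 6.9, a difference of -0.114 percentage points ± 7.58 (SD, n = 467). The summit was richer in GC at 223, poorer at 219 and equal at 25 (exact binomial sign test, two-sided p = 0.887). Members in both replicates had 52.7% ± 7.5 GC (SD, n = 165), and members in neither had 53.2% ± 6.78 (SD, n = 87).

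**Figure D4:**
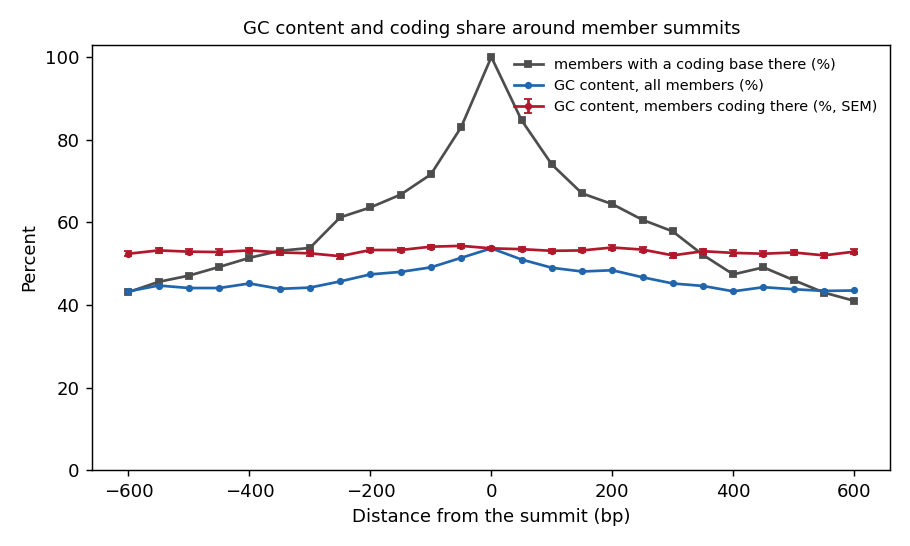
GC content in 21 bp windows (percent) and share of members with a coding base (percent) by distance from the summit in bp, over 654 members; bars on the line for members coding at that distance are SEM. GC over all members was 53.7% at the summit and 43.5% at 600 bp, where 41.0% of members were coding, while members coding at a given distance stayed between 51.8% and 54.3%.

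E-boxes did not pass the test between member summits and nearby coding sequence. Any CANNTG was present on either strand in 299 of 654 summit windows (45.7%, 41.9 to 49.6) and in 255 of 609 coding flanks 500 bp away (41.9%, 37.9 to 45.9). It was in 41.5% of weaker pooled peaks outside promoters and exons and in 33.9% of reproducible peaks, a description with no test. Each of the 10 distinct E-box classes, a sequence taken with its reverse complement, was compared by Fisher's exact test with Benjamini-Hochberg adjustment. Of the 10, 0% were called at an adjusted p under 0.05, and 1 had an unadjusted p under 0.05 by the same test. That class was CAAGTG, in 47 summit windows (7.19%) and 25 flanks (4.11%), with an odds ratio of 1.81 (1.10 to 2.98, two-sided Fisher's exact p = 0.0207, adjusted p = 0.207). CAAATG had 7.49% at summits and 4.93% in flanks (odds ratio 1.56, 0.978 to 2.50). CAATTG had 2.91% at summits and 4.93% in flanks (0.577, 0.322 to 1.04). CAGCTG had 7.80% and 6.73% at summits and in flanks, an odds ratio of 1.17 (0.765 to 1.80). The odds ratio was over 1 for 5 classes and under 1 for 5. The 609 flanks came from 467 members, of which 142 gave 2 flanks, while 187 members gave none and still counted among the 654 summits. Fisher's exact test did not pair a summit with its own flanks, so the 2 sets of sites differ. Windows in 1 gene can overlap or share sequence, so they are not fully independent.

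The opa repeat and AAATAT had odds ratios near 1 between member summits and coding flanks, with wide intervals. The opa repeat, searched as CAGCAGCAG on both strands, encodes runs of glutamine when in frame. It was in 18 summit windows (2.75%, 1.64 to 4.32) and 16 coding flanks (2.63%; odds ratio 1.05, 0.53 to 2.08), against 0.577% of weaker pooled peaks outside promoters and exons. AAATAT was in 5.20% of summit windows and 6.08% of coding flanks (odds ratio 0.848, 0.525 to 1.37), against 24.0% of weaker pooled peaks outside promoters and exons and 36.1% of reproducible peaks. The DREF site TATCGATA, a palindrome found in promoters of many housekeeping genes, was in 0 of 654 summit windows, which allows a share of up to 0.562% (exact 95% limit), and in 0 of 609 coding flanks (up to 0.604%). It was in 0.200% of weaker pooled peaks outside promoters and exons and in 1.51% of reproducible peaks.

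Members were spread thinly over 606 host genes. These were 4.85% (4.48 to 5.24) of the 12501 protein-coding genes with a coding base more than 500 bp from every start, and 1 member fell in 2 overlapping genes. A single member was held by 558 genes and 2 members by 47. Mob2, a cofactor gene of NDR-family kinases, held 3, at pooled ranks 18176, 23660 and 25650. Of its 3 members, 2 overlapped the same replicate 1 peak at rank 16459 and none of the 3 was in both replicates. The other genes with most members and the highest ranks each had 2. They included btsz, Naprt, CG42327 and Sdb, the splicing-factor gene fus, the TOR inhibitor gene scyl, and puc, which encodes a JNK phosphatase.

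Pairs within a gene differed in their support. In scyl both members were in both replicates, at pooled ranks 10586 and 14628, in 840 coding bases more than 500 bp from a start. Their replicate 2 summits lay 170 and 149 bp from the pooled summits. In Naprt the second member, at pooled rank 11136, ranked 29437 in replicate 1 and 10143 in replicate 2. In fus the members at pooled ranks 10048 and 15008 overlapped 1 replicate 1 peak at rank 6540 and no replicate 2 peak. In btsz the second member ranked 26029 in the pooled list and had a replicate 1 peak at rank 19916 and none in replicate 2.

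Member density fell with coding length. Eligible coding length is the CDS of a gene that lies more than 500 bp from every start. The 3126 genes with the shortest (1 to 465 bp) held 9.06 members per 100 kb of it, and the 3125 genes with the longest (1845 to 68847 bp) held 2.01. The share of genes with a member was 2.05% in the shortest group and 6.46% in the longest. By arm, density per Mb of coding sequence was 44.4 on 2R, 36.2 on 2L, 35.2 on 3L, 32.4 on 3R, 27.0 on X and 7.79 on 4, against 34.6 over all arms. Chromosome 4 held only 2 members, and Y held 0.

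Gene lists were described by counts beside the 4.85% of all eligible genes and the 3.46 members per 100 kb over all genes. Of 13 giant muscle and cytoskeletal protein genes, 5 held a member (38.5%, 13.9 to 68.4), at 3.42 members per 100 kb. Their median eligible coding length was 4174 bp. Among the 3125 genes with the longest eligible coding length, 6.46% (5.63 to 7.38) held a member, at 2.01 per 100 kb. The reason for the higher share in the list was not tested. Members in the list included 2 in Zasp52, a Z-disc protein gene, 2 in Tm1, a tropomyosin gene, and 1 in the spectraplakin gene shot. In Zasp52 both members, at pooled ranks 19062 and 22202, had a replicate 1 peak and no replicate 2 peak. In Tm1 the member at pooled rank 20498 ranked 7961 in replicate 1 and 19923 in replicate 2, with the replicate 2 summit 161 bp away.

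Actin, tubulin and glycolysis genes had the highest densities of the 23 lists, on few members. Of 16 actin and tubulin genes 3 held a member (18.8%, 4.05 to 45.6), with 4 members and 21.8 per 100 kb. The cytoplasmic actin gene Act5C had 2, at pooled ranks 13263 and 25202, the first with ranks 17459 and 15570 in replicates 1 and 2 and the second in replicate 2 only, at rank 26936. Act57B, a muscle actin gene, had a member in both replicates, at pooled rank 19586, with the replicate 2 summit 182 bp away. The member in betaTub56D was in replicate 2 only. Of 12 glycolysis genes 3 held a member (95% interval of the share 5.49% to 57.2%), at 23.2 members per 100 kb. Among them Pgi was in both replicates, at ranks 26278 and 26285 in replicates 1 and 2. Ald1 was in replicate 1 only, and Pfk in replicate 2 only, with the replicate 2 summit 231 bp from the pooled summit. Actin genes have near-identical copies, and how the authors treated reads that map to several places is not given in the sources used here.

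Ribosomal protein, heat shock and translation lists held 2 members each, at densities of 7.38, 6.75 and 5.99 per 100 kb in that order, on counts too small to set them apart from all genes. Among cytosolic ribosomal protein genes 2 of 79 held one (2.53%, 0.308 to 8.85), RpL6 and RpL11, and neither was in both replicates. Among heat shock genes 2 of 21 did (9.52%, 1.17 to 30.4), Hsp83 and DnaJ-1. Among translation factors 2 of 22 did (9.09%, 1.12 to 29.2), eIF5B and eEF2. The member in eIF5B ranked 7497 in replicate 1 and 17192 in replicate 2, with the replicate 2 summit 264 bp from the pooled summit. Of 111 replication histone genes only 27 had a coding base more than 500 bp from every start, and these held 0 members (upper 95% limit 12.8%).

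Regulatory and tissue lists held between 0 and 6 genes with a member each, and the 95% interval of each share named in this paragraph included 4.85%. Of 45 bHLH genes 2 held a member (4.44%, 0.543 to 15.1), the coactivator gene tai, in both replicates, and Myc, in replicate 2 only. No member fell in 19 endoderm and midgut regulators (upper limit 17.6%), in 8 Hox genes (36.9%), in 27 segmentation and patterning factors (12.8%), in 17 Notch pathway genes (19.5%) or in 16 cadherin genes (20.6%). No member fell in 13 mucins (upper limit 24.7%) or in 15 digestive serine protease genes (21.8%). Wnt, Hedgehog, Dpp and EGF signalling had 3 of 49 (6.12%, 1.28 to 16.9), namely pnt, Med and vn. Chromatin regulators had 2 of 34 (5.88%, 0.72 to 19.7), with 2 members in the Polycomb group gene Su(z)2 and 1 in ash2. Axon guidance and adhesion genes had 4 of 35 (11.4%, 3.20 to 26.7), among them robo2 and Dscam4. Extracellular matrix genes had 2 of 16 (12.5%, 1.55 to 38.3), the collagen IV gene Col4a1 and the laminin gene wb. Cuticle protein genes had 2 of 60 (3.33%, 0.406 to 11.5) and chemosensory receptors 6 of 179 (3.35%, 1.24 to 7.15). Dynein heavy chains had 1 of 12 (8.33%, 0.211 to 38.5) and neuronal genes 1 of 19 (5.26%, 0.133 to 26.0).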

How the data were processed

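The authors deposited narrowPeak lists on dm6, 1 per replicate, 1 from both alignments pooled and 1 thresholded by IDR, each made against 1 control alignment, per the deposited file descriptions. The sources used here name no peak caller. The authors' lists give a signal value and a deposited −log10 q per peak. Each replicate list and the pooled list holds 30000 peaks, so list length carries no information, and depth is unknown. Peaks were ranked by signal value.

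Summits were placed on Ensembl release 115 (BDGP 6.54), and sequence was read from the RefSeq genome of the same build. Overlap means at least 1 bp. A replicate rank given for a member is that of the overlapping peak with the highest signal value. The summit of that peak can lie more than 100 bp from the pooled summit. Motifs were sought in windows of 50 bp on either side of a centre. The tools were scipy 1.17.1, pandas 2.3.3, numpy 2.4.6 and matplotlib 3.10.9 under Python 3.11.15, and the tests were tested on simulated windows. Peaks are not biological replicates, so p-values compare sites within this experiment.

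The members, the 23 gene lists and the tests were chosen with earlier results of these data known. Named genes are Fer3, hosts of the 20 highest members, the 8 genes with most members, up to 3 genes per list with the highest members, and genes at the thresholds. In the lists, 14 entries had no match and were left out.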

Additional observations from a re-analysis of the deposited data

Results flagged for a closer look

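Replicate 2 held 31 coding-exon peaks with a deposited q of at most 0.05 and no pooled peak, among its 146 coding-exon peaks at that q (21.2%, 14.9 to 28.8). They are signal outside the pooled list, and none of the 31 overlapped a replicate 1 peak. Over peaks of every place, 999 of 17256 replicate 2 peaks at that q had no pooled peak (5.79%, 5.45 to 6.15). In replicate 1 the counts were 0 of 40 coding-exon peaks (upper limit 8.81%) and 328 of 8921 peaks of every place (3.68%). The 5 highest of the 31 lay in CG2694, InR, CG12253, par-1 and Ir21a. The peak in CG2694 (X, summit 2714863) had replicate 2 rank 5287 and signal value 87.4, and the nearest pooled summit was 5518 bp away. InR, the insulin receptor gene, had one at rank 7467, 1176 bp from the nearest pooled summit. What sets these peaks apart was not tested.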

How the results depend on the processing

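Under 3 alternatives the number of members moved by less than 1.5 times, with 822 members at a start distance over 250 bp, 628 peaks chosen by at least 50% of the interval coding in place of the summit base, and 630 with starts of every biotype. The interval midpoint gave the same 654 by construction, since it is the summit of every member. Over 1000 bp from a start, 388 members were left. The share in both replicate lists, 25.2%, was 19.1% when 50% of both peaks had to overlap, 11.9% with summits within 100 bp, 3.52% against the 15000 highest peaks of each replicate and 75.5% for the 49 members with q of at most 0.05. Without replicate 1 it was 60.4% and without replicate 2 it was 51.5%, each then the share in the other list alone. Genes with a member numbered 606, and 155 with members in both replicates only. The GC difference of -0.114 turned to 0.408 with flanks 300 bp away (exact sign test, p = 0.196) and to 8.48 with flanks on any base (p = 2.6e-57), where flanks include introns by construction. From the coding-exon peaks of 1 replicate list it was -0.593 without replicate 1 (exact sign test, p = 0.548) and 0.878 without replicate 2 (p = 0.018), and the cause was not tested. No E-box class was called by Fisher's exact test under any of the 7 alternatives, with lowest adjusted p between 0.0881 and 0.892. The odds ratios of 5 of the 10 classes were followed, CAAGTG and the 4 named next. Of 35 under the alternatives, 32 kept their direction, but CAGCTG moved from 1.17 to 2.31 in members in both replicates (adjusted Fisher's exact p = 0.629) and 12.2 with q of at most 0.05 (0.379). The others turned, CAAATG to 0.688 with q of at most 0.05, CAATTG to 2.26 in members in both replicates and CACCTG to 1.41 with flanks on any base. The values with q of at most 0.05, among them the 12.2, came from 49 members. Only 25 of these had a coding flank, so they rest on few windows. Depth is unknown, and the lists cannot show sites below their lowest peak. No paired analysis was possible because the study has 1 group.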
